A study of Mus musculus with 13 samples.

Results

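Proliferating SMMC were set against freshly sorted muscle stem cells (MuSC) to see how far the cultured cells resemble or differ from the resident stem cells of the same tissue. The comparison used 5 of the 13 samples of the series, all of them bulk RNA-seq libraries: 3 of proliferating SMMC and 2 of MuSC. The series holds 11 bulk libraries in all, and the other 6, of fresh SMMC (n = 3) and differentiating SMMC (n = 3), served for the shared estimate of the spread and for untested levels and rank correlations given beside the main ones. SMMC is the submitters' name for smooth-muscle and mesenchymal-like cells.

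The proliferating SMMC were sorted from skeletal muscle as negative for CD31, CD45, Sca1 and Vcam1 and positive for ITGA7, and then kept in culture for 3 days. The MuSC, which the labels call quiescent, were sorted as positive for both Vcam1 and ITGA7 and negative for the other 3 antigens, and were not cultured. All donors were wild-type C57BL/6 mice aged 2 months; the labels name no transgene, deletion or drug in any group. Fresh SMMC came from the same gate as the proliferating ones without culture, and differentiating SMMC were cultured and then allowed to differentiate. The 2 groups compared therefore differ in the sort gate and in culture, and the part of each in any difference cannot be told apart. Whether the libraries of a group are from different animals is not in the labels, and the p-values therefore speak of the scatter among these libraries, part of which may be technical.

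Muscle stem cells, or satellite cells, lie on the myofibre beneath its basal lamina and are marked by the transcription factor Pax7. They stay out of the cell cycle until the muscle is damaged. Activated cells switch on Myod1, divide as myoblasts, and then exit the cycle with Myog, withdraw their stem cell genes, fuse and build sarcomeres. Quiescence in these cells is associated with Notch signalling, with FGF feedback inhibitors of the Sprouty family and with niche adhesion. SMMC, by contrast, are named for smooth muscle and mesenchymal genes.

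Expression was read as FPKM, which corrects for gene length and library size and allows levels to be compared between genes. Of 24411 genes in the table, 11468 reached 1 FPKM in at least 2 of the 5 libraries and were tested. A gene was called at a limma adjusted p under 0.05, with a log2 change given as proliferating SMMC minus MuSC after adding 1 FPKM to each level, a step that makes the change of low genes look smaller. A gene was counted as alike when the 95% interval of its log2 change lay wholly between -1 and 1, that is, within 2-fold either way. Alike refers to the levels as deposited unless another setting is named.

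Proliferating SMMC differed from MuSC in most of the genes tested. Of the 11468 genes, 8907 were called (77.7%), 5610 of them higher (48.9%) and 3297 lower (28.7%) in proliferating SMMC. Only 1354 genes were alike (11.8%), 50 of which were also called, and 1257 were neither called nor alike. The libraries of the 2 groups did not overlap for 9675 genes (84.4%). A lack of overlap in a gene named below is therefore common and not particular to that gene. With so large a background, a list that mostly moved one way is described here by its own count and median, beside a median log2 change of 0.62 over all genes tested. Differences of at least 10-fold were found for 692 genes called higher and 558 called lower, and the median size of the log2 change was 1.46. The share of called genes that were higher depended on scaling: it was 63.0% as deposited, 51.3% after TMM scaling and 53.9% after quantile normalization, which moved the median of all genes to 0.09 and 0.21. With 1 MuSC library left out, a gene that reaches 1 FPKM only in MuSC cannot pass the filter of 2 libraries. There were 988 genes at 1 FPKM or more in both MuSC libraries and under 1 FPKM in all 3 proliferating ones. Counts from fits without a MuSC library are therefore not comparable with the main counts. Over all genes they are given only with the other processing settings at the end.

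Within each group the libraries ranked the 11468 genes in much the same order. Spearman's rho across genes, which are not independent replicates, was 0.953 to 0.981 among proliferating SMMC and 0.977 between the MuSC libraries. Between the groups it was 0.407 to 0.504 over the 6 pairs of libraries. The proliferating libraries were nearer to differentiating SMMC (0.822 to 0.880) and to fresh SMMC (0.584 to 0.627), and fresh SMMC stood at 0.667 to 0.707 from MuSC. The genes were filtered on the proliferating and MuSC libraries alone. They included 1629 under 1 FPKM in both MuSC libraries and 988 under 1 FPKM in all 3 proliferating ones. Pairs of groups are therefore not strictly comparable, and the effect of the filter on rho was not tested. These values describe the order of levels and carry no test.

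The most abundant transcripts also parted. Of the 20 genes with the highest mean in each group, only Actb and Hspa8 were in both lists (10%), and of the 200 highest, 67 were in both (33.5%). Genes at 1 FPKM or more numbered 9866, 10070 and 10324 in proliferating SMMC, against 9847 and 9527 in MuSC, and 7531 reached that level in all 5 libraries. Rn45s, the precursor of ribosomal RNA, took 4.11, 9.61 and 8.58% of all FPKM in proliferating SMMC and 0.0253 and 0.0244% in MuSC. With this entry left out, the genes tested had a median change of 0.50 on the log2 scale and 60.4% of the called genes were higher.

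**Figure D1:**
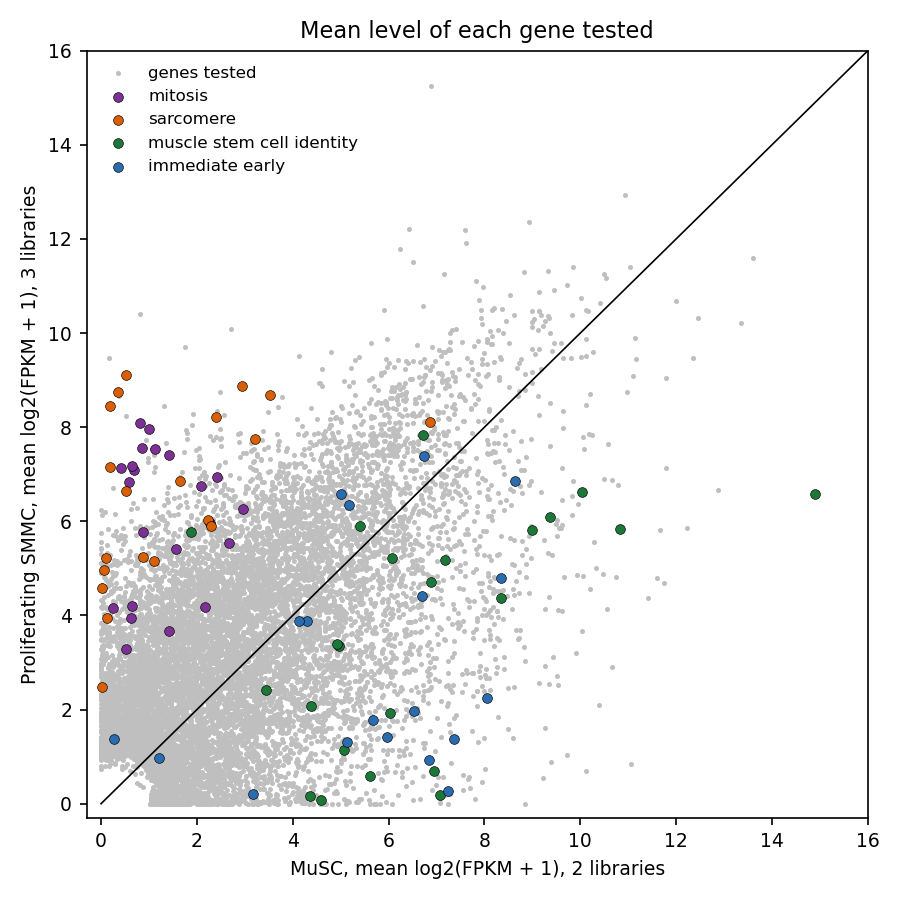
Mean expression of each of the 11468 genes tested, as log2(FPKM + 1), in proliferating SMMC (vertical, 3 libraries) against MuSC (horizontal, 2 libraries), with members of 4 gene lists coloured and a line at equal levels. Mitosis and sarcomere genes lie above the line, and most stem cell identity and immediate early genes lie below it.

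The genes of the sort antigens were read first. Vcam1, the adhesion molecule on which the 2 gates differ, was at 19, 28.8 and 28.9 FPKM in proliferating SMMC, against 143 and 95.5 FPKM in MuSC (log2 change -2.18 ± 0.41 SE, adjusted p = 0.00034). Vcam1 RNA was thus lower in proliferating SMMC but well above 0, without overlap. Of the called genes given below with a value for each library, only Itgb1 overlapped between the groups. Itga7, the laminin receptor subunit for which both gates are positive, was at 15.3, 48.5 and 57.9 FPKM in proliferating SMMC, against 167 and 123 FPKM in MuSC (log2 change -1.99 ± 0.52 SE, adjusted p = 0.0035). Proliferating replicate 1 was the lowest of the 3 for it. Of the genes for which both gates are negative, Pecam1 (CD31) fell by 0.96 on the log2 scale, and Ptprc (CD45) was listed at 0 in all proliferating libraries and at 0 and 0.0191 FPKM in MuSC. Ly6a (Sca1) was higher in proliferating SMMC, at 6.16, 3.06 and 4.17 FPKM in proliferating SMMC, against 0.465 and 0.688 FPKM in MuSC (log2 change 1.76 ± 0.42 SE, adjusted p = 0.0021).

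Genes that mark muscle stem cells were mostly lower in proliferating SMMC. All 23 members of this list in the table were tested: 19 fell, 2 were called higher and none was alike, with a median log2 change of -3.27. Pax7, the defining transcription factor, was at 1.42, 4.74 and 4.31 FPKM in proliferating SMMC, against 19.3 and 20.3 FPKM in MuSC (log2 change -2.31 ± 0.50 SE, adjusted p = 0.00096). It was low but present in every proliferating library, and replicate 1 was the lowest. Calcr, the calcitonin receptor that helps to keep stem cells in quiescence, was at 0, 0.194 and 0 FPKM in proliferating SMMC, against 19.7 and 27 FPKM in MuSC (log2 change -4.50 ± 0.25 SE, adjusted p = 9.7e-09). Chodl, a C-type lectin family gene, was at 0.0361, 0.244 and 0.139 FPKM in proliferating SMMC, against 140.1 and 127 FPKM in MuSC (log2 change -6.88 ± 0.22 SE, adjusted p = 4.4e-10). Cxcr4, a chemokine receptor, was at 0.0358, 0.216 and 0.117 FPKM in proliferating SMMC, against 17 and 22.7 FPKM in MuSC (log2 change -4.20 ± 0.19 SE, adjusted p = 2.2e-09). These 3 genes were near 0 in each of the proliferating libraries.

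Sdc4, a heparan sulphate proteoglycan used to isolate satellite cells, was the most abundant entry of the MuSC libraries, with 5.29 and 7.93% of all FPKM. It was at 86.6, 96.9 and 101 FPKM in proliferating SMMC, against 25697 and 36853 FPKM in MuSC (log2 change -8.33 ± 0.32 SE, adjusted p = 1.0e-09). All 3 cultured libraries were far under both stem cell libraries, by a margin wider than the spread of either group. Tenm4, a teneurin, fell by 6.25 on the log2 scale, Chrdl2, a BMP-binding chordin-like gene, by 5.04, Heyl, a Notch target, by 4.09, Cd34 by 3.93 and Cd82, a tetraspanin, by 3.27. Musk, the receptor kinase of the neuromuscular junction, fell by 3.42 and Ncam1, a neural cell adhesion molecule, by 3.18.

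Not every stem cell gene was lower. Cdh15, the muscle cadherin, was at 41.9, 63.9 and 75.2 FPKM in proliferating SMMC, against 52 and 32.4 FPKM in MuSC, and these groups overlapped (log2 change 0.50, interval -0.24 to 1.25, adjusted p = 0.19). Met, the receptor for hepatocyte growth factor, was at 16.7, 57.4 and 49.9 FPKM in proliferating SMMC, against 74.7 and 58.7 FPKM in MuSC (log2 change -0.84 ± 0.62 SE, adjusted p = 0.22), a difference that passed the test only after TMM scaling. Both genes were expressed in all 5 libraries. Sdc3, another syndecan of satellite cells, ran against the list at 43.9, 58.6 and 59.8 FPKM in proliferating SMMC, against 3.03 and 2.39 FPKM in MuSC (log2 change 3.88 ± 0.23 SE, adjusted p = 2.1e-08). Itgb1, the beta subunit that pairs with Itga7, was at 93.5, 331 and 373 FPKM in proliferating SMMC, against 119 and 92.3 FPKM in MuSC (log2 change 1.10, adjusted p = 0.044). The call was lost after TMM scaling (adjusted p = 0.402) and quantile normalization (0.172), with no filter (0.115), with Rn45s left out (0.0908), with the 5 libraries alone (0.111), without proliferating replicate 2 or 3 (0.142 and 0.156) and without MuSC replicate 1 or 2 (0.0792 and 0.198).

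**Figure D2:**
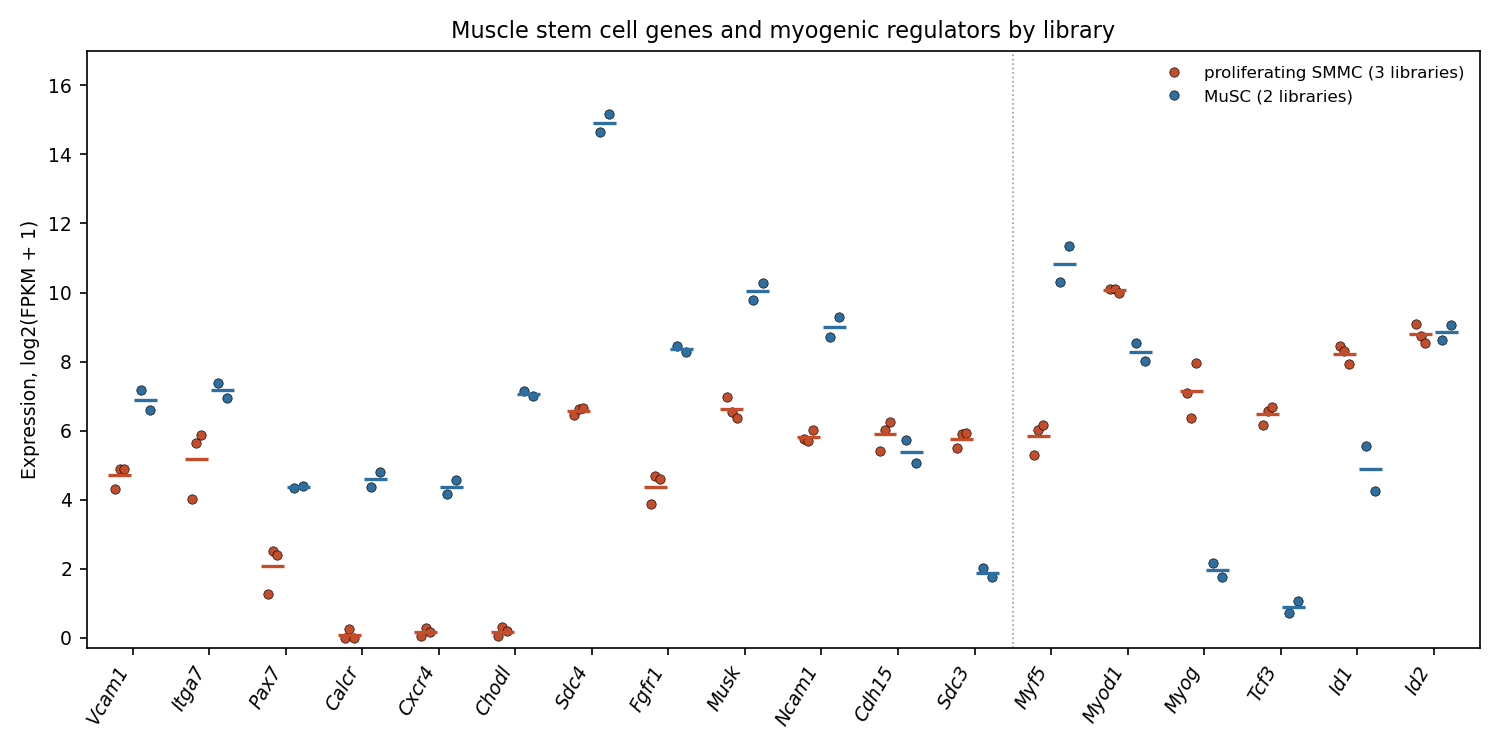
Expression of 12 stem cell genes (left of the dotted line) and 6 myogenic regulators and partners (right) in each library, as log2(FPKM + 1), with proliferating SMMC in orange, MuSC in blue and a bar at each group mean. Calcr, Cxcr4 and Chodl sit near 0 in the 3 proliferating libraries, Cdh15 and Id2 overlap between the groups, and Myod1 and Myog lie higher in proliferating SMMC.

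The myogenic regulators did not move as a block. Myf5, the earliest of the myogenic helix-loop-helix factors, was at 38.4, 64.5 and 70.5 FPKM in proliferating SMMC, against 1269.7 and 2617 FPKM in MuSC (log2 change -5.00 ± 0.64 SE, adjusted p = 1.4e-05). Myod1, the commitment factor, was at 1097, 1094 and 1016 FPKM in proliferating SMMC, against 372 and 256 FPKM in MuSC (log2 change 1.79 ± 0.30 SE, adjusted p = 0.00013). Myog, which drives terminal differentiation, was at 137, 81.1 and 247 FPKM in proliferating SMMC, against 3.53 and 2.38 FPKM in MuSC (log2 change 5.17 ± 0.40 SE, adjusted p = 1.6e-07). So the proliferating libraries had less Myf5 but more Myod1 and Myog than the MuSC libraries, with no overlap in any of the 3. Over the 14 regulators and partners tested of 16 in the table, 7 were called higher and 4 lower, with a median of 0.70, which became 0.07 after TMM scaling with 5 higher and 5 lower. Myf6 and Twist1 did not pass the filter.

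Among the partners, Tcf3, which encodes the E proteins E12 and E47 that pair with Myod1, was at 71.2, 94 and 102 FPKM in proliferating SMMC, against 0.638 and 1.1 FPKM in MuSC (log2 change 5.59 ± 0.23 SE, adjusted p = 1.4e-09). The cultured libraries lay far above both MuSC libraries, where Tcf3 was near 1 FPKM. Its relatives parted from it: Tcf4 fell by 1.58 and Tcf12 was not called (log2 change 0.47 ± 0.24 SE, adjusted p = 0.094). The Id proteins, which sequester E proteins, were split as well. Id1 was at 347, 315 and 242 FPKM in proliferating SMMC, against 45.8 and 17.9 FPKM in MuSC (log2 change 3.33 ± 0.68 SE, adjusted p = 0.00065), whereas Id2 was alike, at 542, 429 and 373 FPKM in proliferating SMMC, against 395 and 531 FPKM in MuSC (interval -0.87 to 0.77). Id3 was called higher at 2.13 with adjusted p = 0.032, but that call was lost without MuSC replicate 2 (adjusted p = 0.222), without proliferating replicate 1 or 2 (0.0659 and 0.0551) and after TMM scaling (0.122) or quantile normalization (0.0611), and with no filter (0.1005). Id1 thus lay clear of the MuSC libraries and Id2 overlapped them. Mef2c, a differentiation partner of Myog, was called higher at 2.77 (adjusted p = 4.0e-05), and Mef2d was alike at a low level. Mef2a, called at an adjusted p of 0.035, lost its call under TMM scaling (0.42), quantile normalization (0.333), with no filter (0.0806), with Rn45s left out (0.0653), without proliferating replicate 2 or 3 (0.0635 and 0.118) and without MuSC replicate 1 or 2 (0.0819 and 0.148). Msc (musculin) and Bhlhe41, helix-loop-helix factors that oppose Myod1, fell by 3.99 and 4.11.

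Upstream Pax, Eya and homeobox factors ran in both directions. Among 13 such genes, 8 were tested, with 3 higher, 2 lower and 2 alike, and a median of 0.22 that turned to -0.27 under TMM scaling and -0.16 after quantile normalization. Lbx1, a homeobox factor of migrating limb muscle precursors, was at 6.68, 3.75 and 3.02 FPKM in proliferating SMMC, against 0.0194 and 0.0261 FPKM in MuSC (log2 change 2.37 ± 0.33 SE, adjusted p = 2.5e-05). It was near 0 in both MuSC libraries, and the groups did not overlap. Eya3, a transcriptional cofactor, was called higher at 2.38 (adjusted p = 1.1e-05) and Eya1 lower at -1.87 (adjusted p = 0.00019). Eya4 was alike at a low level. Pax3, the relative of Pax7, was not called, at 3.83, 1.88 and 1.17 FPKM in proliferating SMMC, against 2.25 and 4.14 FPKM in MuSC.

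Most limb position genes that were tested were higher in proliferating SMMC. Hox and T-box genes hold a cell's place along the body axis, and 14 of 43 were tested: 9 were called higher and 2 lower, with a median of 1.18. Hoxa11 was at 9.36, 10.8 and 11 FPKM in proliferating SMMC, against 0.137 and 0.177 FPKM in MuSC (log2 change 3.30 ± 0.30 SE, adjusted p = 6.7e-07). Hoxa9 and Hoxa10 were called higher at 3.26 and 2.16, and Hoxc9 at 2.05. Hoxa11 was near 0 in both MuSC libraries, whereas Hoxa9, Hoxa10 and Hoxc9 were above 1 FPKM there. Tbx4, the hindlimb T-box factor, was the other way, at 0.465, 0.497 and 1.12 FPKM in proliferating SMMC, against 6.31 and 4.4 FPKM in MuSC (log2 change -1.91 ± 0.28 SE, adjusted p = 4.7e-05). Tbx5, its forelimb counterpart, was listed at 0 in all 5 libraries. Hoxc8 fell by 0.87.

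Sarcomere genes were higher in proliferating SMMC without exception. All 20 tested members of 21 were called higher, with a median of 5.01 and no overlap between the groups in any of them. Over all genes tested, 48.9% were called higher and 84.4% did not overlap. The 20 kept their direction after TMM scaling and after quantile normalization. Tnnt2, cardiac troponin T, which embryonic and cultured skeletal muscle cells also make, was at 618, 453 and 596 FPKM in proliferating SMMC, against 0.125 and 0.807 FPKM in MuSC (log2 change 8.60 ± 0.31 SE, adjusted p = 7.7e-10). Tnni1, slow troponin I, was at 374, 214 and 539.6 FPKM in proliferating SMMC, against 0.0756 and 0.189 FPKM in MuSC (log2 change 8.28 ± 0.33 SE, adjusted p = 1.1e-09). Actc1, cardiac actin, was at 408, 223 and 885 FPKM in proliferating SMMC, against 0.159 and 0.42 FPKM in MuSC (log2 change 8.40 ± 0.41 SE, adjusted p = 3.9e-09). In MuSC these RNAs were near 0 in both libraries. Proliferating replicate 3 had the highest value of the 3 for 19 of the 20 genes and replicate 2 the lowest for 17. Myh3, embryonic myosin heavy chain, shows the spread: it was at 14.6, 14.2 and 57.2 FPKM in proliferating SMMC, against 0.0152 and 0.00645 FPKM in MuSC. The summed level of the list ran from 2509 to 5695 FPKM over the proliferating libraries and from 154 to 165 FPKM over MuSC.

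Genes of the acetylcholine receptor and of fusion followed the sarcomere genes in most cases. Of 16 tested of 17, 12 were called higher and 2 lower, with a median of 3.23. Chrna1, the receptor's alpha subunit, was at 689.5, 564 and 563 FPKM in proliferating SMMC, against 31.1 and 17.4 FPKM in MuSC (log2 change 4.63 ± 0.37 SE, adjusted p = 1.9e-07). Chrng, its fetal gamma subunit, was at 78.6, 56.2 and 127 FPKM in proliferating SMMC, against 1.13 and 0.196 FPKM in MuSC (log2 change 5.71 ± 0.36 SE, adjusted p = 2.8e-08). Both subunits were high in all cultured libraries. Chrnb1, the beta subunit, was alike at 105, 99.4 and 105 FPKM in proliferating SMMC, against 92.7 and 76 FPKM in MuSC (interval -0.19 to 0.78), so the subunits of a single receptor were not shifted together. Dok7, the adaptor of Musk, was at 34.5, 33 and 33.2 FPKM in proliferating SMMC, against 0.347 and 0.295 FPKM in MuSC (log2 change 4.71 ± 0.34 SE, adjusted p = 8.6e-08), while Musk itself was lower, as given above. Tmem8c, which encodes the fusion protein myomaker, was at 186, 121 and 187 FPKM in proliferating SMMC, against 1.1 and 0.85 FPKM in MuSC (log2 change 6.37 ± 0.29 SE, adjusted p = 2.4e-09).

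The promoters of Chrna1 and Chrng are shown for the E-box, CANNTG, the sequence that Myod1 and Myog are known to bind in muscle genes. Each window runs from 250 bases before to 50 bases after the start of the gene in RefSeq on build GRCm38.p6 and is printed on the gene's strand, with every CANNTG in capitals. The Chrna1 window is chr2:73580289-73580588 on the minus strand and the Chrng window is chr1:87205561-87205860 on the plus strand.
Chrna1: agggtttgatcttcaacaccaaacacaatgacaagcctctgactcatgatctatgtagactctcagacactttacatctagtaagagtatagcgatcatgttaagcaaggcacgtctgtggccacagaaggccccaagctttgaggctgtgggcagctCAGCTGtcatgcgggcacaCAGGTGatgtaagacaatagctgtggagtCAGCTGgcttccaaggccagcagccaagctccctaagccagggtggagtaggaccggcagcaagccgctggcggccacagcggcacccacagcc
Chrng: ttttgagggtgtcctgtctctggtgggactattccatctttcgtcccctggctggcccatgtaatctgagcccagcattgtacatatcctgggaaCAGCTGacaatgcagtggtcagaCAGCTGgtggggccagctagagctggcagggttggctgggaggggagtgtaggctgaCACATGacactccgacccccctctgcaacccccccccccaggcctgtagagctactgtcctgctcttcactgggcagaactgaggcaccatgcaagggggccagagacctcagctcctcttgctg
Each window holds 3 such matches. CANNTG, which reads the same on both strands, occurred in 7 of 9 promoters of this list (77.8%), in 16 of 17 sarcomere promoters (94.1%), in 11 of 14 promoters of the immediate early genes described below (78.6%), in 61.9% of the 8569 tested genes that had a window and in 72.1% of all genes with one. Its form CAGCTG, a subset of CANNTG, occurred in 4 of 9 (44.4%), 7 of 17 (41.2%), 5 of 14 (35.7%), 14.7% and 16.1% of these sets in the same order. A match is a description of letters and no evidence of binding.

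DNA replication genes were higher in proliferating SMMC in every case. All 26 members were tested and called higher, with a median log2 change of 3.66 and no overlap, against 48.9% higher and 84.4% without overlap over all genes. Mcm6, a subunit of the replicative helicase, was at 144, 180.5 and 176 FPKM in proliferating SMMC, against 3.76 and 2.54 FPKM in MuSC (log2 change 5.35 ± 0.31 SE, adjusted p = 1.5e-08). Mcm2, of the same helicase, was called higher at 4.58 (adjusted p = 1.9e-08). Cdc6, which loads that helicase on origins, was at 24.2, 31.6 and 25.2 FPKM in proliferating SMMC, against 0.664 and 0.21 FPKM in MuSC (log2 change 4.29 ± 0.25 SE, adjusted p = 1.4e-08). Prim1, a primase subunit, was called higher at 4.92 (adjusted p = 2.4e-08). Every cultured library was far above both MuSC libraries for these 4 genes. The list summed to 2149 to 2411 FPKM in proliferating SMMC, against 99.3 and 132 FPKM in MuSC.

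Mitotic genes were further apart still. All 22 members were called higher, with a median of 4.60 and no overlap, beside the same shares over all genes (48.9% and 84.4%). Cdc20, an activator of the anaphase-promoting complex, was at 312, 263 and 244 FPKM in proliferating SMMC, against 0.926 and 0.596 FPKM in MuSC (log2 change 7.28 ± 0.25 SE, adjusted p = 5.0e-10). Ube2c, the ubiquitin-conjugating enzyme of that complex, was at 195, 189 and 181 FPKM in proliferating SMMC, against 1.11 and 0.558 FPKM in MuSC (log2 change 6.70 ± 0.24 SE, adjusted p = 7.7e-10). Aurka, the centrosomal Aurora kinase, was at 219, 168 and 171 FPKM in proliferating SMMC, against 1.23 and 1.11 FPKM in MuSC (log2 change 6.42 ± 0.24 SE, adjusted p = 8.3e-10), and Plk1, Polo-like kinase, at 119, 114 and 106 FPKM in proliferating SMMC, against 0.878 and 0.188 FPKM in MuSC (log2 change 6.25 ± 0.25 SE, adjusted p = 1.2e-09). All 4 genes were near 1 FPKM or below in the stem cells. The summed level was 2203 to 2236 FPKM in proliferating SMMC and 30.8 to 54.0 FPKM in MuSC, so the 3 cultured libraries were closely matched in this respect. In a bulk library, a larger share of dividing cells and more of each RNA per dividing cell cannot be told apart, here as elsewhere.

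The 4 mitotic promoters are shown because these genes rose together and because cell cycle promoters are known for a pair of elements: the CCAAT box, bound by NF-Y, and TTTGAA, the core of the element that holds G2 and M phase genes down in resting cells. Windows and strands are as above, and capitals mark CCAAT and TTTGAA or their reverse complements on either strand. Cdc20 lies at chr4:118437294-118437593 on the minus strand, Ube2c at chr2:164769679-164769978 on the plus strand, Aurka at chr2:172370521-172370820 on the minus strand and Plk1 at chr7:122159185-122159484 on the plus strand.
Cdc20: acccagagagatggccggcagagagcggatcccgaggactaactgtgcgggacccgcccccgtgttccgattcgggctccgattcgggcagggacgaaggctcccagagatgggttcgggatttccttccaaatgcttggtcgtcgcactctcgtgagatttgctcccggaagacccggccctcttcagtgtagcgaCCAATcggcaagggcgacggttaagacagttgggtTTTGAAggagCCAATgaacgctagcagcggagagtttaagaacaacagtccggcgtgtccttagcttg
Ube2c: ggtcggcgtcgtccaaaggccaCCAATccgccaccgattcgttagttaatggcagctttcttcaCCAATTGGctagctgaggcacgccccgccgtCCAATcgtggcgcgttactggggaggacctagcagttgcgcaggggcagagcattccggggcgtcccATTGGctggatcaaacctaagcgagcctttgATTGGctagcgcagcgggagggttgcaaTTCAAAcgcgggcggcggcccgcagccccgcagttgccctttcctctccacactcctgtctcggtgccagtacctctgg
Aurka: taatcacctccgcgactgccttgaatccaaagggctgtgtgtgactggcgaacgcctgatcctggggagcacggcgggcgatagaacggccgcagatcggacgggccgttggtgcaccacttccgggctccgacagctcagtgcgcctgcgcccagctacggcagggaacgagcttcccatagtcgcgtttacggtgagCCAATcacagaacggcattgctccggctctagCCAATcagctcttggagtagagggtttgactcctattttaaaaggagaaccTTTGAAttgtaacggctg
Plk1: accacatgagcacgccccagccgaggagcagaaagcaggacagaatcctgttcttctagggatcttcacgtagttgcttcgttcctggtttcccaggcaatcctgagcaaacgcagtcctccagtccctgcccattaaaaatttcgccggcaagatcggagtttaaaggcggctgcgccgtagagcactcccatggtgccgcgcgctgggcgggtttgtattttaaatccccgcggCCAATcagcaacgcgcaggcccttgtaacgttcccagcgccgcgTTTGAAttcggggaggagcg
Each of the 4 windows holds 1 TTTGAA, and the CCAAT count is 2 in Cdc20, 6 in Ube2c, 2 in Aurka and 1 in Plk1. CCAAT on either strand was present in 16 of the 18 mitosis promoters with a window (88.9%), in 61.9% of 21 replication promoters and in 39.2% of all tested genes with a window. TTTGAA was present in 13 of the 18 (72.2%), in 9.52% of the replication promoters and in 11.4% of tested genes. The letters are described without a test.

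Clustered histone genes, whose mRNA is made mainly in S phase, were on the same side. Of 46 tested of 68, 40 were called higher, none lower and 2 were alike, with a median of 1.75. Hist1h2ap was at 458, 488 and 298 FPKM in proliferating SMMC, against 0.324 and 0.262 FPKM in MuSC (log2 change 8.30 ± 0.45 SE, adjusted p = 8.2e-09). Hist1h4i, Hist1h2ag and Hist1h2ab were called higher at 5.48, 5.37 and 3.42. Hist1h2bh and Hist2h2aa1 were alike at low levels. Near-identical histone copies can share reads and most histone mRNA lacks a polyA tail, so single histone levels are uncertain.

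Inhibitors of the cell cycle did not share a direction. Of 13 tested of 14, 6 fell, 4 rose and 2 were alike, with a median of -0.45, or -1.10 after TMM scaling. Btg1, an antiproliferative gene of the Btg/Tob family, was at 84.6, 38.7 and 52.4 FPKM in proliferating SMMC, against 2637 and 4039.8 FPKM in MuSC (log2 change -5.85 ± 0.38 SE, adjusted p = 3.5e-08). Btg2, its relative, was at 10.8, 9.6 and 7.24 FPKM in proliferating SMMC, against 330.0 and 631 FPKM in MuSC (log2 change -5.50 ± 0.40 SE, adjusted p = 9.7e-08). Both Btg genes were abundant in the 2 MuSC libraries. Cdkn1b, the Cdk inhibitor p27, was at 0.805, 1.7 and 2.22 FPKM in proliferating SMMC, against 53.7 and 123 FPKM in MuSC (log2 change -5.04 ± 0.36 SE, adjusted p = 7.7e-08). Every proliferating library held these genes more than 10-fold lower than either MuSC library. Cdkn1c, the inhibitor p57, fell by 2.58.

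In contrast, Cdkn1a, the p53-inducible inhibitor p21, was alike, at 298, 176 and 285 FPKM in proliferating SMMC, against 262 and 327 FPKM in MuSC (interval -0.76 to 0.26), although it passed the test as lower after TMM scaling (-0.92) and quantile normalization (-0.59). Rb1, the retinoblastoma protein gene, was alike at a low level. Cdkn2b, an inhibitor of Cdk4 and Cdk6, was at 28.9, 18 and 32.6 FPKM in proliferating SMMC, against 1.34 and 1.42 FPKM in MuSC (log2 change 3.49 ± 0.31 SE, adjusted p = 4.9e-07), and Rbl1, the pocket protein p107, was at 7.71, 8.65 and 7.51 FPKM in proliferating SMMC, against 0.427 and 0.41 FPKM in MuSC (log2 change 2.66 ± 0.28 SE, adjusted p = 2.1e-06).

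**Figure D3:**
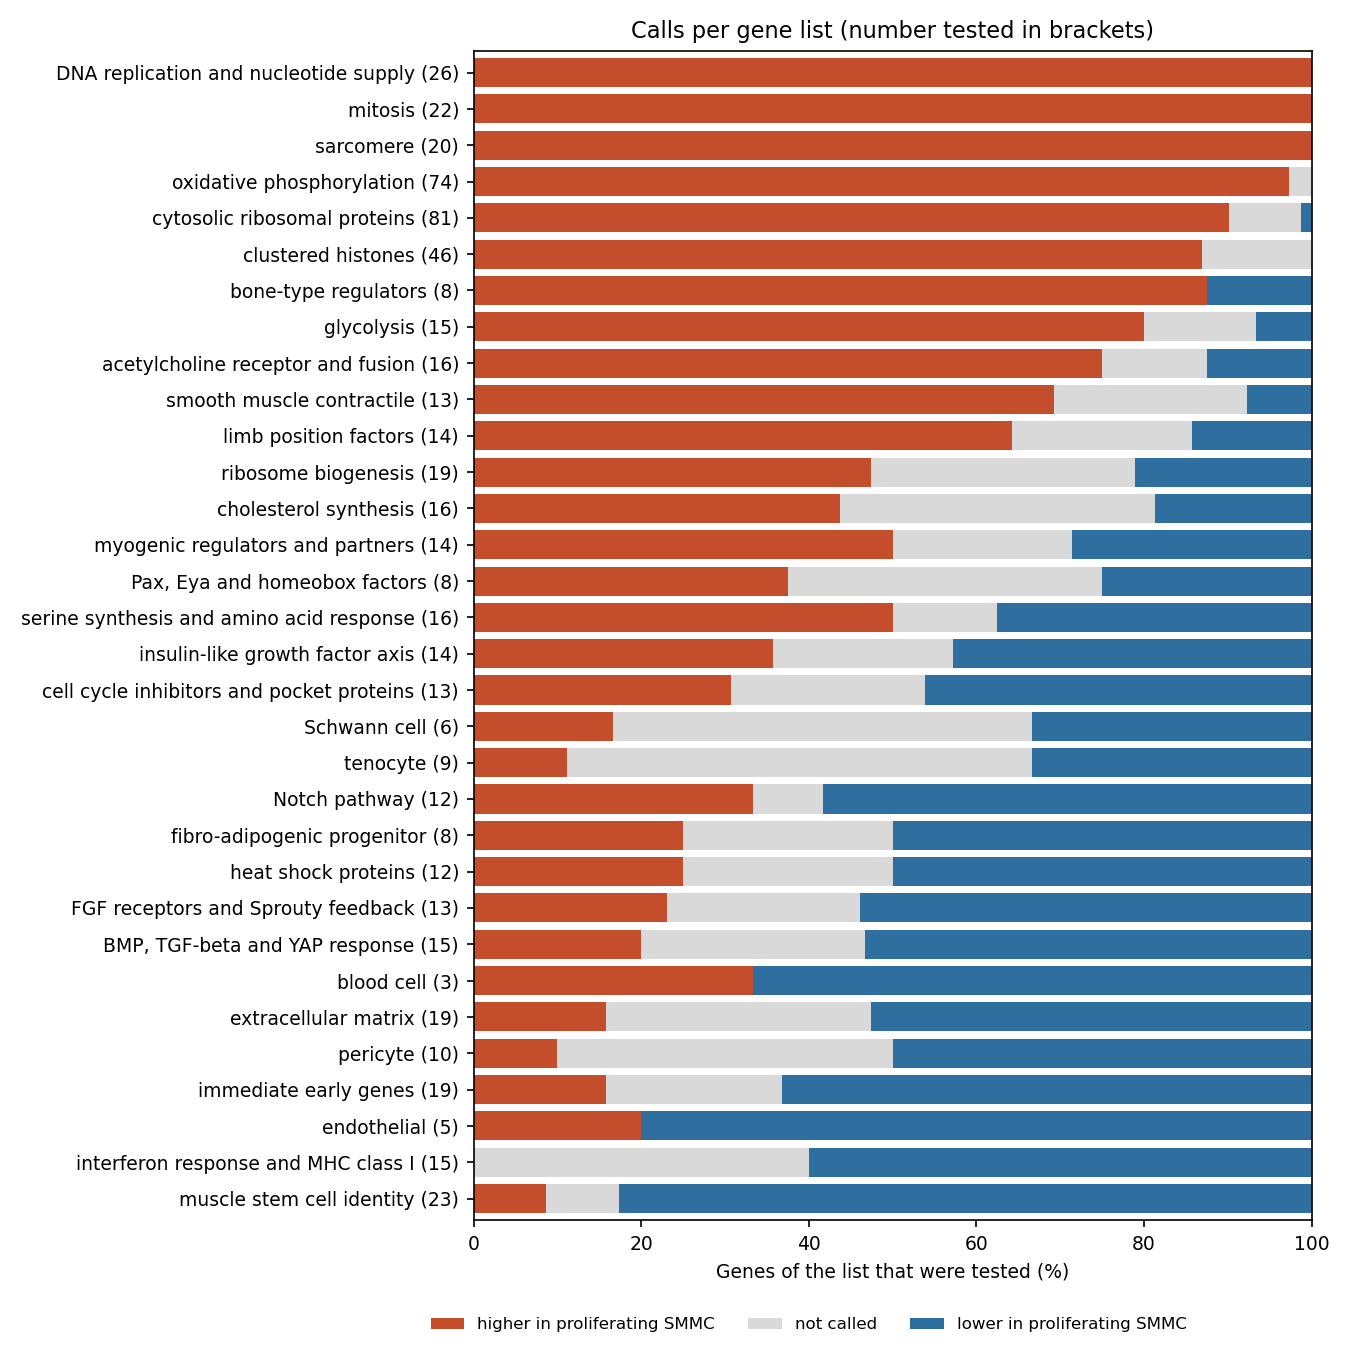
Share of the tested members of each gene list that were called higher (orange, from the left), not called (grey) or called lower (blue, to the right edge) in proliferating SMMC relative to MuSC. The 26 replication, 22 mitosis and 20 sarcomere genes were all higher, and 19 of 23 stem cell identity genes were lower; over all 11468 genes 48.9% were higher and 28.7% lower.

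The machinery of growth was higher in most of its members. Of 81 cytosolic ribosomal protein genes tested of 84, 73 were called higher, 1 lower and 6 were alike, with a median of 1.67; after TMM scaling 58 were higher and 3 lower, and the median was 1.00. Rps2 was at 3624, 4009 and 3894 FPKM in proliferating SMMC, against 229.9 and 164 FPKM in MuSC (log2 change 4.30 ± 0.24 SE, adjusted p = 1.0e-08). Rps27l, a p53-inducible paralog of Rps27, was called higher at 3.85 (adjusted p = 3.1e-08). Not all ribosomal protein genes shared this direction. Rps25 ran the other way, at 604, 543 and 498 FPKM in proliferating SMMC, against 2204 and 2192 FPKM in MuSC (log2 change -2.01 ± 0.20 SE, adjusted p = 1.4e-06), and Rps3 was alike. Ribosomal protein genes have many processed copies in the genome, which can take or add reads.

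Ribosome biogenesis genes were less uniform, with 9 higher, 4 lower and 4 alike of 19, and a median of 0.52 that became -0.15 under TMM scaling. Npm1, nucleophosmin, was at 2963, 2499.7 and 2262 FPKM in proliferating SMMC, against 974 and 421 FPKM in MuSC (log2 change 2.00 ± 0.32 SE, adjusted p = 0.0001). Gar1, Dkc1 and Bop1, which act in pseudouridylation and large subunit assembly, were called higher at 2.93, 1.81 and 2.34. Ncl, nucleolin, was alike, at 810.0, 836 and 708 FPKM in proliferating SMMC, against 709.8 and 642 FPKM in MuSC (interval -0.29 to 0.71). Npm1 was thus apart between the groups and Ncl overlapped. Rrn3, an initiation factor of RNA polymerase I, was the reverse, at 9.58, 54.9 and 64 FPKM in proliferating SMMC, against 377 and 404 FPKM in MuSC (log2 change -3.54 ± 0.61 SE, adjusted p = 0.00016). Myc, the growth regulator, was likewise lower, at 23.1, 21.8 and 16.7 FPKM in proliferating SMMC, against 102 and 102 FPKM in MuSC (log2 change -2.27 ± 0.26 SE, adjusted p = 4.5e-06). The share of Rn45s given above was higher in the proliferating libraries, but the libraries were made from polyA RNA. The level of Rn45s is therefore not read here as output of ribosomal RNA. With that entry left out, the list again had 9 genes higher and 4 lower, with a median of 0.39.

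Energy genes were higher in proliferating SMMC. Of 74 oxidative phosphorylation genes tested of 79, 72 were called higher and none lower, with a median of 2.40; after TMM scaling 64 were higher and 2 lower, with a median of 1.75. Atp5b, the beta subunit of ATP synthase, was at 265, 262 and 264 FPKM in proliferating SMMC, against 33.8 and 21.1 FPKM in MuSC (log2 change 3.25 ± 0.20 SE, adjusted p = 2.9e-08). The groups did not overlap for Atp5b. Ndufb3 and Cox5b were called higher at 3.82 and 3.49. Ndufb11 was alike at 139, 113 and 129 FPKM in proliferating SMMC, against 177 and 110.4 FPKM in MuSC, and was called lower after TMM scaling and after quantile normalization.

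Glycolysis showed 12 of 15 genes higher and 1 lower, with a median of 2.53. Eno1, the ubiquitous enolase, was at 4303, 3432 and 2995 FPKM in proliferating SMMC, against 98.1 and 55.8 FPKM in MuSC (log2 change 5.56 ± 0.25 SE, adjusted p = 2.4e-09). Eno3, the muscle enolase, was at 974, 804 and 744 FPKM in proliferating SMMC, against 2.11 and 2.63 FPKM in MuSC (log2 change 7.96 ± 0.23 SE, adjusted p = 2.0e-10). Tpi1, Pgam1 and Gapdh were called higher at 5.26, 4.73 and 4.13. None of these 5 genes overlapped between the groups. Hk2, an insulin-responsive hexokinase at the entry of the pathway, was the exception, at 3.27, 2.05 and 2.46 FPKM in proliferating SMMC, against 155 and 174 FPKM in MuSC (log2 change -5.54 ± 0.25 SE, adjusted p = 2.5e-09). Slc2a1, a glucose transporter, was alike, and Pfkp was alike at 0.02 as deposited but called lower at -0.65 after TMM scaling.

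Serine and folate enzymes were mostly higher, and the genes lower were Atf4, Ddit3, Trib3, Chac1, Slc7a5 and Slc7a11. Of 16 genes, 8 were higher and 6 lower, with a median of 0.97, or 0.33 after TMM scaling. Phgdh, the entry enzyme of serine synthesis, was at 73.2, 70.2 and 64.6 FPKM in proliferating SMMC, against 7.82 and 5.95 FPKM in MuSC (log2 change 3.17 ± 0.24 SE, adjusted p = 1.5e-07). Mthfd1, a folate enzyme, was called higher at 3.46 (adjusted p = 1.9e-07), Shmt2, the mitochondrial serine hydroxymethyltransferase, at 2.61 (adjusted p = 1.5e-06) and Asns, asparagine synthetase, at 3.67 (adjusted p = 2.6e-07). These enzymes were higher in every cultured library than in either stem cell library. Chac1 and Trib3 fell by 2.83 and 3.02.

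Cholesterol synthesis gave no common direction. Of 16 genes 7 were higher and 3 lower, with a median of 0.49; after TMM scaling 5 were higher and 6 lower with a median of -0.16. Fdft1, squalene synthase, was at 62.3, 64.3 and 85 FPKM in proliferating SMMC, against 16.7 and 13.6 FPKM in MuSC (log2 change 2.14 ± 0.30 SE, adjusted p = 3.0e-05), and Mvd, Idi1 and Fdps were called higher at 2.00, 2.09 and 1.71. Their cultured and stem cell libraries did not overlap. Insig1, which retains the SREBP regulators in the endoplasmic reticulum, was at 10.9, 21.2 and 19 FPKM in proliferating SMMC, against 204 and 371 FPKM in MuSC (log2 change -3.99 ± 0.34 SE, adjusted p = 4.1e-07). Sqle, the squalene epoxidase, was alike.

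FGF receptor and feedback genes were called lower more often than higher. Of 13 tested of 15, 7 fell and 3 rose, with a median of -1.02. Over all genes tested, 28.7% were called lower and 48.9% higher. By sign alone, 6 members lay above 0 and 7 below as deposited, and 4 and 9 after TMM scaling. Spry2, a Sprouty inhibitor of receptor tyrosine kinase signals, had the largest decrease of all named genes, at 1.15, 0.448 and 0.864 FPKM in proliferating SMMC, against 1768 and 2598 FPKM in MuSC (log2 change -10.22 ± 0.33 SE, adjusted p = 4.1e-10). Spry4 was at 5.22, 5.89 and 6.46 FPKM in proliferating SMMC, against 167 and 238 FPKM in MuSC (log2 change -4.87 ± 0.39 SE, adjusted p = 2.2e-07), and Spred1, a related inhibitor, fell by 3.45. Both Sprouty genes were high in the MuSC libraries and low in the proliferating ones. Fgfr1, the main FGF receptor of satellite cells, was at 13.6, 24.5 and 23.3 FPKM in proliferating SMMC, against 348 and 307 FPKM in MuSC (log2 change -3.97 ± 0.36 SE, adjusted p = 6.5e-07). Among the targets of the pathway, Etv4, an ETS factor induced by ERK signalling, was the reverse, at 11.5, 12 and 14.6 FPKM in proliferating SMMC, against 0.223 and 0.0262 FPKM in MuSC (log2 change 3.60 ± 0.30 SE, adjusted p = 2.6e-07), and so was Spred2, called higher at 2.24. The inhibitors named here thus ran in both directions. Spry1, the family member best known for quiescence in satellite cells, was close in comparison: it was at 4.41, 4.2 and 4.35 FPKM in proliferating SMMC, against 10.5 and 9.15 FPKM in MuSC (log2 change -1.02 ± 0.26 SE, adjusted p = 0.0034).

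Notch genes were split. Of 12 tested of 16, 7 were lower and 4 higher, with a median of -1.59. Notch2 was at 1.87, 2.44 and 1.51 FPKM in proliferating SMMC, against 167 and 272 FPKM in MuSC (log2 change -6.20 ± 0.26 SE, adjusted p = 1.8e-09), Notch1 fell by 1.87 and Notch3 by 4.67. The ligand Jag1 was at 0.76, 0.655 and 0.235 FPKM in proliferating SMMC, against 149 and 232 FPKM in MuSC (log2 change -6.93 ± 0.40 SE, adjusted p = 1.5e-08), but Jag2, another ligand, was at 21.4, 23.2 and 29.6 FPKM in proliferating SMMC, against 0.0694 and 0.26 FPKM in MuSC (log2 change 4.46 ± 0.32 SE, adjusted p = 8.4e-08). The 2 Jagged ligands thus ran in opposite directions. Among targets, Heyl was lower, as given above, while Hes1 was at 57.7, 37.4 and 30.9 FPKM in proliferating SMMC, against 0.364 and 0.697 FPKM in MuSC (log2 change 4.77 ± 0.43 SE, adjusted p = 5.7e-07). These 2 targets also ran in opposite directions. Maml1, the coactivator, fell by 1.57. Hes6, an inhibitor of Hes1 that is active in myoblasts, had the largest increase among the named genes, at 1603, 1123 and 1379 FPKM in proliferating SMMC, against 0.696 and 0.823 FPKM in MuSC (log2 change 9.59 ± 0.26 SE, adjusted p = 1.2e-10).

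The insulin-like growth factor axis was split as well. Of 14 genes 5 were higher, 6 lower and 1 alike, with a median of -0.03. Igf1, the ligand, was at 0.083, 0.0143 and 0.0452 FPKM in proliferating SMMC, against 29.5 and 40.7 FPKM in MuSC (log2 change -5.09 ± 0.30 SE, adjusted p = 1.7e-08). Igf1r and Igf2r, the receptors, fell by 3.72 and 4.78. Igfbp5, a binding protein, was at 2.96, 1.98 and 3.31 FPKM in proliferating SMMC, against 181 and 156 FPKM in MuSC (log2 change -5.51 ± 0.35 SE, adjusted p = 2.8e-08), and Igfbp2, another, at 43.1, 36.2 and 37 FPKM in proliferating SMMC, against 0 and 0.00745 FPKM in MuSC (log2 change 5.30 ± 0.36 SE, adjusted p = 5.0e-08). The 2 binding proteins thus ran in opposite directions. H19, the imprinted noncoding RNA beside Igf2, was at 293, 272 and 354 FPKM in proliferating SMMC, against 3.86 and 6.32 FPKM in MuSC (log2 change 5.68 ± 0.28 SE, adjusted p = 3.7e-09). Insr, the insulin receptor, was alike at a low level, where adding 1 FPKM makes changes look smaller. It was at 0.405, 1.32 and 1.22 FPKM in proliferating SMMC, against 0.811 and 0.628 FPKM in MuSC.

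In the BMP, TGF-beta and YAP group, 8 of 15 tested genes fell and 3 rose, with a median of -1.31. Bmp4, a ligand, was at 0.917, 0.269 and 0.606 FPKM in proliferating SMMC, against 32 and 39.5 FPKM in MuSC (log2 change -4.54 ± 0.41 SE, adjusted p = 5.9e-07). The receptors Bmpr2 and Tgfbr1 fell by 3.18 and 2.14, and Tead1, the DNA-binding partner of YAP, by 1.54. None of these 4 genes overlapped between the groups. Ankrd1, a YAP target of muscle, was at 768, 675 and 595 FPKM in proliferating SMMC, against 66.4 and 98.7 FPKM in MuSC (log2 change 3.04 ± 0.39 SE, adjusted p = 1.3e-05), and Amotl2, another target, was called higher at 2.57 (adjusted p = 7.2e-05).

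Immediate early genes, which cells transcribe at once after a stimulus and which tissue dissociation is known to induce, were mostly lower in proliferating SMMC. Of 19 tested, 12 fell and 3 rose, with a median of -2.97. Fos was at 4.03, 2.9 and 4.4 FPKM in proliferating SMMC, against 189 and 368 FPKM in MuSC (log2 change -5.81 ± 0.27 SE, adjusted p = 3.1e-09). Fosb was at 0.0419, 0.497 and 0.12 FPKM in proliferating SMMC, against 116 and 195 FPKM in MuSC (log2 change -6.98 ± 0.49 SE, adjusted p = 6.6e-08). Klf4, a zinc finger factor, was at 3.4, 0.685 and 1.32 FPKM in proliferating SMMC, against 132 and 202 FPKM in MuSC (log2 change -5.99 ± 0.37 SE, adjusted p = 2.6e-08), and Egr2 fell by 5.90. These 4 genes were under 5 FPKM in each cultured library. Junb and Ier2 ran the other way, at 1.58 and 1.17, although Ier2 was not called after TMM scaling (adjusted p = 0.091). The MuSC were prepared fresh and the proliferating SMMC after culture, so cell identity and preparation cannot be told apart. Fresh SMMC, which were sorted without culture, had 1383 ± 263 FPKM of Fos (SD, n = 3), against the 279 ± 126 FPKM of MuSC (SD, n = 2).

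Heat shock genes showed a similar split. Of 12 tested, 6 were lower and 3 higher, with a median of -0.73. Hspa1a, an inducible Hsp70 gene, was at 2.91, 3.24 and 2.93 FPKM in proliferating SMMC, against 45.2 and 147 FPKM in MuSC (log2 change -4.36 ± 0.48 SE, adjusted p = 3.2e-06), and Hspa1b, its near-identical copy, fell by 4.38, so reads may be split between them. Dnajb1, an Hsp40 partner, was at 41.8, 36.4 and 35.1 FPKM in proliferating SMMC, against 193 and 391 FPKM in MuSC (log2 change -2.83 ± 0.30 SE, adjusted p = 2.2e-06). For these 3 genes MuSC replicate 2 was above MuSC replicate 1. Hspa5, the chaperone BiP of the endoplasmic reticulum, was at 1429.9, 1141 and 1044 FPKM in proliferating SMMC, against 11954 and 9238 FPKM in MuSC (log2 change -3.14 ± 0.26 SE, adjusted p = 3.2e-07). The mitochondrial chaperones Hspd1 and Hspe1 were higher, at 2.48 and 2.27. The chaperones of the endoplasmic reticulum and of mitochondria named here thus ran in opposite directions. Hspa8, the constitutive Hsp70, was alike, at 2965, 2612 and 2558 FPKM in proliferating SMMC, against 2185 and 2038 FPKM in MuSC (interval -0.10 to 0.82), and so was Hsp90aa1.

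**Figure D4:**
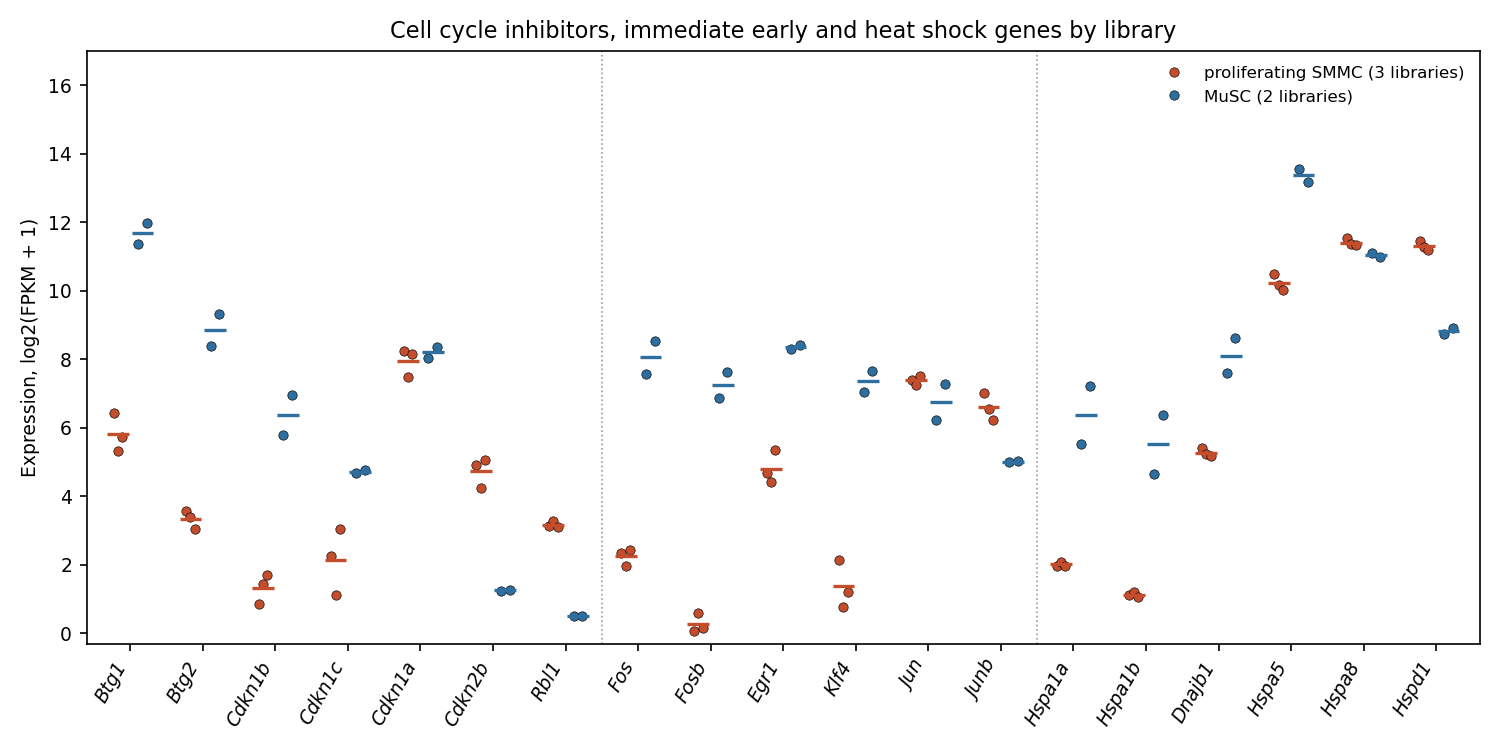
Expression of 7 cell cycle inhibitors and pocket proteins, 6 immediate early genes and 6 heat shock proteins (separated by dotted lines) in each library, as log2(FPKM + 1), with proliferating SMMC in orange, MuSC in blue and a bar at each group mean. Btg1, Btg2, Cdkn1b, Fos, Fosb and Klf4 lie lower in the 3 proliferating libraries, whereas Cdkn1a, Jun and Hspa8 lie close together in the groups.

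The label of the cultured cells was set against marker lists. Of the smooth muscle genes, 13 of 16 were tested, and 9 were higher and 1 lower, with a median of 2.14. Tpm1 and Tpm2, tropomyosins that skeletal muscle shares, were at log2 changes of 3.91 and 5.80, Cnn2, a calponin found in many cell types, at 3.86, and Myl9, a regulatory light chain, at 4.45. These genes are not specific to smooth muscle. Myh11, the smooth muscle myosin that defines the type, did not pass the filter, at 0.0104, 0.0799 and 0.0391 FPKM in proliferating SMMC, against 0.759 and 0.581 FPKM in MuSC. Acta2, smooth muscle actin, was at 734, 518 and 605 FPKM in proliferating SMMC, against 53.2 and 24.4 FPKM in MuSC (log2 change 4.05 ± 0.31 SE, adjusted p = 1.6e-07). Mylk, the myosin light chain kinase, was lower (log2 change -1.14 ± 0.33 SE, adjusted p = 0.0066) and Cald1 alike, though called lower after TMM scaling (-0.95) and quantile normalization (-0.70). The defining smooth muscle gene was therefore near 0 in libraries that held Myod1, Tnnt2 and Actc1 at the levels given above. On this gene the smooth muscle term of the label is not met by the proliferating libraries, and SMMC stands here only for the gate and the culture. In fresh SMMC Myh11 was at 61.7 ± 14.8 FPKM (SD, n = 3).

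Pericyte genes were mostly lower or low. Of 10 tested of 15, 5 fell, 1 rose and 1 was alike, with a median of -0.92, and the list summed to 41.2 to 46.3 FPKM in proliferating SMMC, against 133 and 137 FPKM in MuSC. Rgs5, a regulator of G protein signals, was at 3.09, 2.3 and 4.33 FPKM in proliferating SMMC, against 11.2 and 11.4 FPKM in MuSC (log2 change -1.57 ± 0.34 SE, adjusted p = 0.001). Vtn, vitronectin, fell by 3.11 and Higd1b by 1.14. These are common marker genes of mural cells. Cspg4 (NG2) was called higher at an adjusted p of 0.025, a call lost after TMM scaling (0.359) or quantile normalization (0.192), without proliferating replicate 3 (0.0573) and without MuSC replicate 1 or 2 (0.0908 and 0.0798). Rgs4 was alike.

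Markers of further cell types were low in proliferating SMMC. The fibro-adipogenic list summed to 24.1 to 45.6 FPKM in proliferating SMMC, against 735 and 866 FPKM in MuSC, and 4 of its 8 tested genes fell and 2 rose, with a median of -2.46. Dpt, dermatopontin, was listed at 0 in the 3 proliferating libraries, against 468 and 455 FPKM in MuSC. Pdgfra, the defining receptor of those cells, was under 1 FPKM in all 5 libraries. Gsn fell by 4.40, and Smoc2 was higher (log2 change 3.01 ± 0.61 SE, adjusted p = 0.0006). Dpt was thus abundant in MuSC libraries in which Pdgfra was not. The endothelial list summed to 5.36 to 8.45 FPKM in proliferating SMMC, against 33.5 and 47.6 FPKM in MuSC, with Tek and Vwf down by 4.35 and 2.94 and Kdr and Tie1 listed at 0 in the proliferating libraries; Egfl7 was higher. In all, 4 of 5 tested endothelial genes fell and 1 rose, with a median of -0.96. The blood cell list, with 2 lower and 1 higher of 3 tested and a median of -1.24, summed to 8.07 to 10.3 FPKM in proliferating SMMC, against 25.2 and 42.9 FPKM in MuSC. Cd68 fell by 3.89 and Laptm5 was higher (log2 change 3.10 ± 0.21 SE, adjusted p = 5.3e-08). The part of these cells in the results was not tested. With 1 MuSC library left out, genes of these lists that reach 1 FPKM only in MuSC cannot pass the filter, so no count is given for that case.

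Tendon and nerve support genes gave few calls. Of 9 tenocyte genes tested, 3 fell and 1 rose, with a median of -0.36. Egr1, 1 of the 3 that fell, is also in the immediate early list. Scx, the tendon factor scleraxis, was at 2.36, 2.67 and 2.41 FPKM in proliferating SMMC, against 0.00778 and 0.0331 FPKM in MuSC (log2 change 1.77 ± 0.23 SE, adjusted p = 1.7e-05). Tnc, tenascin C, was called lower (log2 change -1.98 ± 0.54 SE, adjusted p = 0.0048), but not without MuSC replicate 1 (adjusted p = 0.104). These 2 genes thus ran in opposite directions. Of 6 Schwann cell genes, 2 fell and 1 rose, with a median of 0.55. Egr2, 1 of the 2 that fell, was already counted among the immediate early genes. Ngfr, the low-affinity neurotrophin receptor, was the one higher, at 5.85, 3.35 and 6.92 FPKM in proliferating SMMC, against 0.269 and 0.295 FPKM in MuSC (log2 change 2.27 ± 0.27 SE, adjusted p = 6.8e-06), and Pmp22 fell by 2.16. Sox10, which defines the glial type, was under 1 FPKM in all 5 libraries.

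The matrix was mostly lower in proliferating SMMC. Of 19 genes, 10 fell and 3 rose, with a median of -1.09, and proliferating replicate 1 had the lowest of the 3 values for 14. Fits without a MuSC library drop the matrix genes that reach 1 FPKM only in MuSC, so their counts are not given. Col3a1, fibrillar collagen III, was at 7.28, 12.2 and 12.8 FPKM in proliferating SMMC, against 268 and 175 FPKM in MuSC (log2 change -4.24 ± 0.26 SE, adjusted p = 2.6e-08). Col6a1, a collagen VI chain known as a component of the satellite cell niche, was at 0.369, 0.241 and 0.716 FPKM in proliferating SMMC, against 55.2 and 58 FPKM in MuSC (log2 change -5.33 ± 0.40 SE, adjusted p = 1.2e-07). Neither collagen overlapped between the groups. Col15a1 fell by 4.34 and Lamc1, a basement membrane laminin chain, by 3.65. Lamb1, another laminin chain, was higher (log2 change 1.46 ± 0.22 SE, adjusted p = 6.2e-05), and Fn1, fibronectin, was called higher at 1.56 but not after TMM scaling (adjusted p = 0.0589).

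Bone-type regulators were mostly higher in the cultured cells. Of 8 tested of 12, 7 were higher and 1 lower, with a median of 2.46. Dlx2, a homeobox factor, and Sp7 (osterix), the osteoblast zinc finger factor, were listed at 0 in both MuSC libraries. Dlx2 was at 69.5, 73.2 and 81.2 FPKM and Sp7 at 32.2, 49.2 and 47.8 FPKM in proliferating SMMC. Runx2, the master factor of bone, was at 14.6, 14.7 and 11.8 FPKM in proliferating SMMC, against 2.47 and 1.06 FPKM in MuSC (log2 change 2.45 ± 0.34 SE, adjusted p = 2.7e-05), and Dlx3 was called higher at 3.13 (adjusted p = 4.4e-07). Alpl, the alkaline phosphatase that serves as a mark of bone formation, was the reverse, at 0, 0.253 and 0 FPKM in proliferating SMMC, against 50.1 and 35.5 FPKM in MuSC (log2 change -5.32 ± 0.30 SE, adjusted p = 1.2e-08). Ibsp and Bglap, which mark mature bone cells, stayed under 1 FPKM in every library.

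Interferon and MHC class I genes were lower where they changed. Of 15 tested of 16, 9 fell and none rose, with a median of -1.69. Fits without a MuSC library drop the members that reach 1 FPKM only in MuSC, Gbp2 among them, so their counts are not given. H2-K1, a class I heavy chain, was at 17.7, 15.2 and 15.4 FPKM in proliferating SMMC, against 589 and 1037 FPKM in MuSC (log2 change -5.52 ± 0.24 SE, adjusted p = 2.0e-09). Gbp2, an interferon-induced GTPase, was at 0, 0.0235 and 0.15 FPKM in proliferating SMMC, against 49.7 and 45 FPKM in MuSC (log2 change -5.52 ± 0.49 SE, adjusted p = 4.9e-07). The groups did not overlap for either gene. Irf1, an interferon regulatory factor, and Tapbp, which loads peptides on class I molecules, fell by 3.34 and 2.83. B2m, the class I light chain, was not called (log2 change 0.37 ± 0.31 SE, adjusted p = 0.29).

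The largest differences held further genes outside the lists. The 10 leading increases included Hes6, Tnnt2, Actc1, Hist1h2ap, Tnni1, Eno3 and Cdc20, described above. The other 3 were Spp1 (osteopontin), at 908, 625 and 639 FPKM in proliferating SMMC, against 0.0552 and 0.176 FPKM in MuSC (log2 change 9.32 ± 0.35 SE, adjusted p = 8.6e-10), Tmem119, at 353, 287 and 272 FPKM in proliferating SMMC, against 0.36 and 0.516 FPKM in MuSC (log2 change 7.72 ± 0.18 SE, adjusted p = 1.2e-10), and Serpinf1, a secreted serpin, called higher at 7.37. These 3 genes were under 10 FPKM in both MuSC libraries. The leading decreases beside Spry2, Sdc4 and Dpt included Nfia, a nuclear factor I gene, at 0.379, 0.932 and 0.602 FPKM in proliferating SMMC, against 907 and 1368 FPKM in MuSC (log2 change -9.42 ± 0.26 SE, adjusted p = 1.8e-10). Cxcl1, a neutrophil chemokine, was at 0.73, 1.09 and 1.35 FPKM in proliferating SMMC, against 856 and 842 FPKM in MuSC (log2 change -8.70 ± 0.40 SE, adjusted p = 2.5e-09). Kdm6b, the H3K27 demethylase, was at 0.347, 0.507 and 0.544 FPKM in proliferating SMMC, against 519.5 and 683 FPKM in MuSC (log2 change -8.67 ± 0.23 SE, adjusted p = 1.2e-10). Nfia, Cxcl1 and Kdm6b were thus near 1 FPKM or below in the cultured libraries. Lrrc8a, a volume-regulated channel subunit, fell by 8.50, Igsf3 by 8.30, the noncoding RNA Tug1 by 7.76 and Cp, ceruloplasmin, by 7.72.

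At the far end, 29 genes reached 10 FPKM in every proliferating library and stayed under 0.1 FPKM in both MuSC libraries, and 40 did the reverse. Among the 29, beside the Dlx2, Sp7, Igfbp2 and Myh3 already named, was Pitx3, a homeobox factor of the myogenic lineage, at 22.2, 21.2 and 24.7 FPKM in proliferating SMMC, against 0.0154 and 0.0283 FPKM in MuSC. Smyd1, a muscle methyltransferase needed for sarcomeres, was at 17.5, 34.4 and 60.7 FPKM in proliferating SMMC, against 0.0166 and 0.00239 FPKM in MuSC. Among the 40 were Cxcl2, listed at 0 in proliferating SMMC against 56.8 and 55.1 FPKM in MuSC, and Tgfbr3, the co-receptor betaglycan, at 0.0086, 0.012 and 0.0339 FPKM in proliferating SMMC, against 37 and 43.1 FPKM in MuSC.

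Some abundant genes were alike in the groups. Of the alike genes outside the lists, the 6 most abundant were Cd63, a tetraspanin, Sec61a1, the channel of protein translocation, Pdia3, a disulphide isomerase, Hnrnpk, an RNA-binding protein, Asb5 and Aagab. Cd63 was at 1916, 1440.4 and 1482 FPKM in proliferating SMMC, against 1786 and 1045 FPKM in MuSC (interval -0.39 to 0.84). Asb5, an ankyrin repeat gene known from muscle, was at 669, 615 and 542 FPKM in proliferating SMMC, against 822 and 408 FPKM in MuSC (interval -0.69 to 0.82). Aagab, an adaptor-complex assembly factor, was alike with a log2 change of 0.17 but turned to -0.50 after TMM scaling. That scaling moved the median of all genes tested from 0.62 to 0.09. The intervals of the 6 genes under it are not given here, so they are alike only for the levels as deposited. For each of the 6, MuSC replicate 1 was above MuSC replicate 2.

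Levels in the other SMMC groups place these values. Myod1 averaged 72.3 ± 24.1 FPKM in the fresh cells, 1069 ± 45.8 while proliferating, 412 ± 104 on differentiation and 314 ± 81.7 in MuSC (SD, n = 3 in each SMMC group and 2 in MuSC, here and below). Myog averaged 14.3 ± 5.44 FPKM in the fresh cells, 155 ± 84.6 while proliferating, 398 ± 44.3 on differentiation and 2.95 ± 0.812 in MuSC. Actc1 averaged 15.6 ± 2 FPKM in the fresh cells, 505 ± 342 while proliferating, 3831 ± 468 on differentiation and 0.289 ± 0.184 in MuSC. Of the 4 groups, Myog and Actc1 were thus highest in differentiating SMMC, and Myod1 in proliferating SMMC. Ccnb1, the mitotic cyclin, averaged 0.67 ± 0.528 FPKM in the fresh cells, 247 ± 16.5 while proliferating, 35.5 ± 12.5 on differentiation and 1.05 ± 0.68 in MuSC, highest in proliferating SMMC. Pax7 averaged 1.17 ± 0.742 FPKM in the fresh cells, 3.49 ± 1.81 while proliferating, 1.52 ± 1.33 on differentiation and 19.8 ± 0.655 in MuSC. Chodl averaged 331 ± 74.5 FPKM in the fresh cells, 0.14 ± 0.104 while proliferating, 2.21 ± 0.305 on differentiation and 133 ± 9.54 in MuSC, so that the 2 fresh groups were high and the 2 cultured ones low. Spry2 averaged 10.6 ± 3.88 FPKM in the fresh cells, 0.821 ± 0.354 while proliferating, 0.664 ± 0.42 on differentiation and 2183 ± 587 in MuSC, highest in MuSC. Dlx2 averaged 0.0922 ± 0.135 FPKM in the fresh cells, 74.6 ± 5.97 while proliferating, 2.14 ± 1.14 on differentiation and 0 ± 0 in MuSC, and Sp7 averaged 0.422 ± 0.355 FPKM in the fresh cells, 43.1 ± 9.45 while proliferating, 0.105 ± 0.136 on differentiation and 0 ± 0 in MuSC, both peaking in proliferating SMMC. These are levels without tests.

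The proliferating libraries varied among themselves in a patterned way. Replicate 1 was the highest of the 3 for 77 of 81 ribosomal protein genes and for 67 of 74 oxidative phosphorylation genes, and the lowest for 17 of 23 stem cell identity genes. Replicate 3 was the highest for 19 of 20 sarcomere genes, 12 of 16 receptor and fusion genes and 11 of 16 cholesterol genes. Replicate 2 was the lowest for 57 of 74 oxidative phosphorylation genes, 17 of 20 sarcomere genes and 11 of 19 immediate early genes, and the highest for 7 of 9 tenocyte genes. These counts describe 3 libraries and carry no test.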

How the data were processed

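Bulk polyA RNA of sorted mouse skeletal muscle cells was copied to cDNA with Smart-seq2 and made into libraries with the NuGen Ovation Ultra Low system, per the labels' protocols. The deposited table gives FPKM per gene symbol, per the file headers. The submitters' processing notes name R 3.3.1 and 3.4.3, Seurat 2.2, Cell Ranger 2.1.0, STAR 2.5.1b, StringTie, SAMtools 1.3.1 and HISAT2 2.1.0 with mm10, and do not link tools to files. No source used here gives the annotation or strand setting, so paralogs, overlapping genes and antisense partners are uncertain. FPKM keep no depth: among 1203 genes above 0 and below 0.3 FPKM in proliferating SMMC replicates 1 and 2, the most common 0.01 log2 bin of ratios held 0.831%, so no read unit could be recovered. Precision rests on the spread between libraries alone. The table's 4 FPKM columns that match no sample and the 2 single-cell libraries were not used.

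Levels were tested as log2(FPKM + 1) with limma 3.58.1 under R 4.3.3 (lmFit, then eBayes with a trend on intensity), two-sided, with 1 mean per group, all 11 bulk libraries in one fit, and Benjamini-Hochberg adjustment over the 11468 genes. The script was tested on simulated data. Alternatives were a filter of 10 FPKM or none, a pseudocount of 0.1, TMM scaling (factors from a trimmed mean of log ratios, applied to the FPKM), quantile normalization, leaving Rn45s out with a common total, the 5 libraries alone, a replicate block, no intensity trend and leaving out each library. All genes were fitted together, and no p was adjusted over a list alone.

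The gene lists and the comparison were chosen with earlier results of these data known. Genes named were the 5 sort genes, all stem cell identity, myogenic and upstream Pax, Eya and homeobox genes, the 10 largest changes each way with 10 FPKM or more in the higher group and no overlap, up to 4 members per list by smallest adjusted p in its main direction, 2 against it and 2 alike, and the 6 most abundant alike genes outside the lists. Rn45s, Acta2, Myh11, Myh3, Scx, Tbx5, Pdgfra, Sox10, Ibsp, Bglap, Kdr, Tie1, Ccnb1, B2m, Atf4, Ddit3, Slc7a5, Slc7a11, Spry1, Notch3, Pitx3, Smyd1, Cxcl2, Tgfbr3, Jun and Actb were named, where the rule does not take them, after their values were seen. A few others taken by the rule are not reported here. Promoters came from RefSeq on GRCm38.p6, the same build as mm10; 8569 of the 11468 tested genes had a window.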

Additional observations from a re-analysis of the deposited data

How the results depend on the processing

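With a 10 FPKM filter 6424 genes were tested, of which 5486 were called, 3675 higher and 1811 lower. Of the 6424, 596 were alike (9.28%), against 11.8% of the genes tested in the main fit. Without a filter, 18874 genes were tested and 7599 were alike, most of them low in both groups. With a pseudocount of 0.1, 759 genes were alike. Leaving out 1 library at a time gave 6948 to 8753 genes called, 4813 to 5584 higher, 1967 to 3290 lower and 716 to 1312 alike, with the lowest counts of genes lower and alike without MuSC replicate 1. The lowest value of each range came from a fit without a MuSC library, with 10439 or 10450 genes tested. Genes that reach 1 FPKM only in MuSC fail the filter there. Those counts therefore cannot tell how far the calls rest on 1 MuSC library. Without 1 proliferating library, 8520 to 8753 genes were called, 5232 to 5584 higher, 3169 to 3290 lower and 1034 to 1312 alike. TMM scaling, which applies a factor to each library, moved the median of all genes tested from 0.62 to 0.09. Under it Rpl5 turned to -0.12 (adjusted p = 0.626), Pfkp to -0.65 (0.0096) and Aagab to -0.50 (0.0181). These were not the only ones to turn: of the 14 myogenic regulators and partners, 8 were above 0 as deposited and 7 after TMM scaling. Of the other named genes, TMM scaling ended the call of 6 and gave one to 8, and quantile normalization ended 4 and gave 6. The TMM and quantile counts of genes higher (4505 and 4775) and lower (4282 and 4086) stayed within 1.5 times the counts as deposited.

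The replicate numbers were not taken to pair the samples: the deviations of proliferating SMMC and MuSC libraries with the same number correlated at 0.088 and 0.023. A fit with the replicate block gave 8811 genes called, 5502 higher, 3309 lower and 1257 alike. Among named genes the block ended 2 calls, of Itgb1 and Cspg4. The depth of the libraries is unknown, and MuSC had 2 of them, so a difference that missed the threshold does not show likeness.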
